A study of Homo sapiens with 6 samples.

Results

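Aminoacyl-tRNA synthetases attach each amino acid to its tRNA. The genes described here are 36 synthetase genes, 20 for the cytosolic enzymes and 16 for the mitochondrial ones, which carry the suffix 2 in their symbols. They were matched by symbol to a written list, with no threshold on their values. All 36 were found among the 58735 rows of the count table, under the older symbols (AARS for AARS1 and so on), and all 36 passed the filter on low counts that left 15935 genes for testing. The samples were RNA from RD cells, an established embryonal rhabdomyosarcoma cell line, in 2 groups of 3. The control samples expressed scrambled shRNA and the TAK1 knockdown samples expressed TAK1 shRNA, each delivered by lentivirus, so all 6 samples had been transduced. The study describes the use of a single TAK1 shRNA sequence for RNA-seq, so what loss of TAK1 did and what that construct did otherwise cannot be told apart. The labels do not say whether the 3 samples of a group came from separate cultures, and p-values therefore measure the spread between these samples, which may be technical.

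Cytosolic synthetases are encoded in the nucleus and charge tRNAs for translation on cytoplasmic ribosomes. Mitochondrial synthetases are also encoded in the nucleus, are imported into the organelle and charge the tRNAs that serve the mitochondrial ribosome, which makes core subunits of the respiratory chain. Several cytosolic enzymes sit in a multi-synthetase complex held together by non-enzymatic scaffold proteins, and KARS and GARS each make both the cytosolic and the mitochondrial enzyme from 1 gene. When amino acids run short, uncharged tRNA activates the kinase GCN2 and the transcription factor ATF4, which is known to raise many cytosolic synthetase genes through amino acid response elements. Inherited defects of mitochondrial synthetases are known to cause disease of tissues with a high demand for respiration, muscle and brain among them.

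The amino acid response element is shown here because it sets several cytosolic members apart in sequence, whatever their expression did. RefSeq promoter windows (GRCh38.p14, 250 bases before to 50 bases after the gene start) were matched for 30 of the 36 members. The motif TGATGNAAN, searched on both strands, was present in the windows of 6 of 16 cytosolic members (37.5%), of 1 of 14 mitochondrial members (7.14%) and of 3.67% of all 27305 windows of the same length. In the stretches below, each written 5′ to 3′ on the strand of the gene, capitals mark the match and the lower-case letters are the 10 bases on either side.
AARS, chr16:70289676-70289704, minus strand: ttttctcgcaGTTGCATCAgccaagttag
CARS, chr11:3057408-3057436, minus strand: cggggcggcgGTTGCATCAgattctagga
IARS, chr9:92293693-92293721, minus strand: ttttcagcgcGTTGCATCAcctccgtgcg
MARS, chr12:57488053-57488081, plus strand: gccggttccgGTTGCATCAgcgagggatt
NARS, chr18:57621804-57621832, minus strand: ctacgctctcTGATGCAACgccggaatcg
TARS, chr5:33440956-33440984, plus strand: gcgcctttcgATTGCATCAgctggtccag
YARS2, chr12:32756076-32756104, minus strand: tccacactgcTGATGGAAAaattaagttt

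The matches in AARS, CARS, IARS and MARS had the same 9 letters, GTTGCATCA, and that in NARS was their reverse complement. In IARS, CARS, MARS, TARS and NARS the match began within 15 bases of the RefSeq start. In AARS and YARS2 it began 188 and 197 bases before that start. By the GENCODE starts used further below, AARS starts at 70289707 on the minus strand, so its whole printed stretch lies inside the gene. There NARS starts at 57622213 and MARS at 57475445, both outside the windows searched. The contrast in distance therefore depends on the annotation. The E-box CACGTG was found in 1 cytosolic and 3 mitochondrial windows against 7.43% of all windows, and the core of the NRF1 site, GCGCATGC, in 0 cytosolic and 2 mitochondrial windows against 3.27% of all windows. A match is a description of these letters and says nothing of binding. LARS, VARS, YARS, AARS2 and VARS2 were among the 6 members with no window in the table.

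Total counts per sample ran from 28839898 to 34469323. The targeted gene MAP3K7, which encodes TAK1, had 77.9, 76.5 and 77.6 CPM (counts scaled to sequencing depth) in control samples and 30.5, 33.6 and 29.9 CPM in knockdown samples, a log2 fold change of -1.30 (adjusted p = 4.45e-14). Of 8 skeletal muscle lineage markers, MYF5 was listed at 0 in every sample, MYF6 did not exceed 0.032 CPM, and the other 6 were present. Of these 6, MYOD1, MYOG and MYMK passed both thresholds given below and were higher in TAK1 knockdown cells, with log2 fold changes of 0.37, 0.27 and 0.98. The 9 markers of blood, endothelial and epithelial cells did not exceed 0.425 CPM in any sample, with CD3E, CDH5, CDH1 and KRT19 at 0. In bulk RNA, fewer cells of a kind and less RNA per cell cannot be told apart. The part of the muscle marker differences in the synthetase values was not tested.

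Most synthetase genes differed little between TAK1 knockdown and control RD cells, and the members that passed both thresholds were mitochondrial. NARS2 and LARS2, the mitochondrial asparaginyl- and leucyl-tRNA synthetases, were lower, and 0 of the 36 members were higher past both thresholds. To be called, a gene needed an adjusted p under 0.05 (edgeR, quasi-likelihood F test, adjusted by Benjamini-Hochberg over all 15935 genes) and a log2 fold change of 0.25 or more in either direction. By this rule 11.3% of all genes tested were lower and 11.8% were higher. The 2 of 36 members called are 5.56%, and 12.5% of the 16 mitochondrial members. Both shares lie under the 23.1% of all genes in either direction. They also lie under the 28.2% of the genes expressed at or above the level of the lowest member. By adjusted p alone, 8 members were lower and 2 were higher, together 27.8% of the members, against 33.3% of all genes (17.2% lower and 16.1% higher) and 43.6% of those at or above the level of the lowest member. The absolute log2 fold change was under 0.25 for 33 of the 36 members (91.7%) and for 60.7% of all genes. Its median was 0.11 over the members and 0.19 over all genes.

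**Figure D1:**
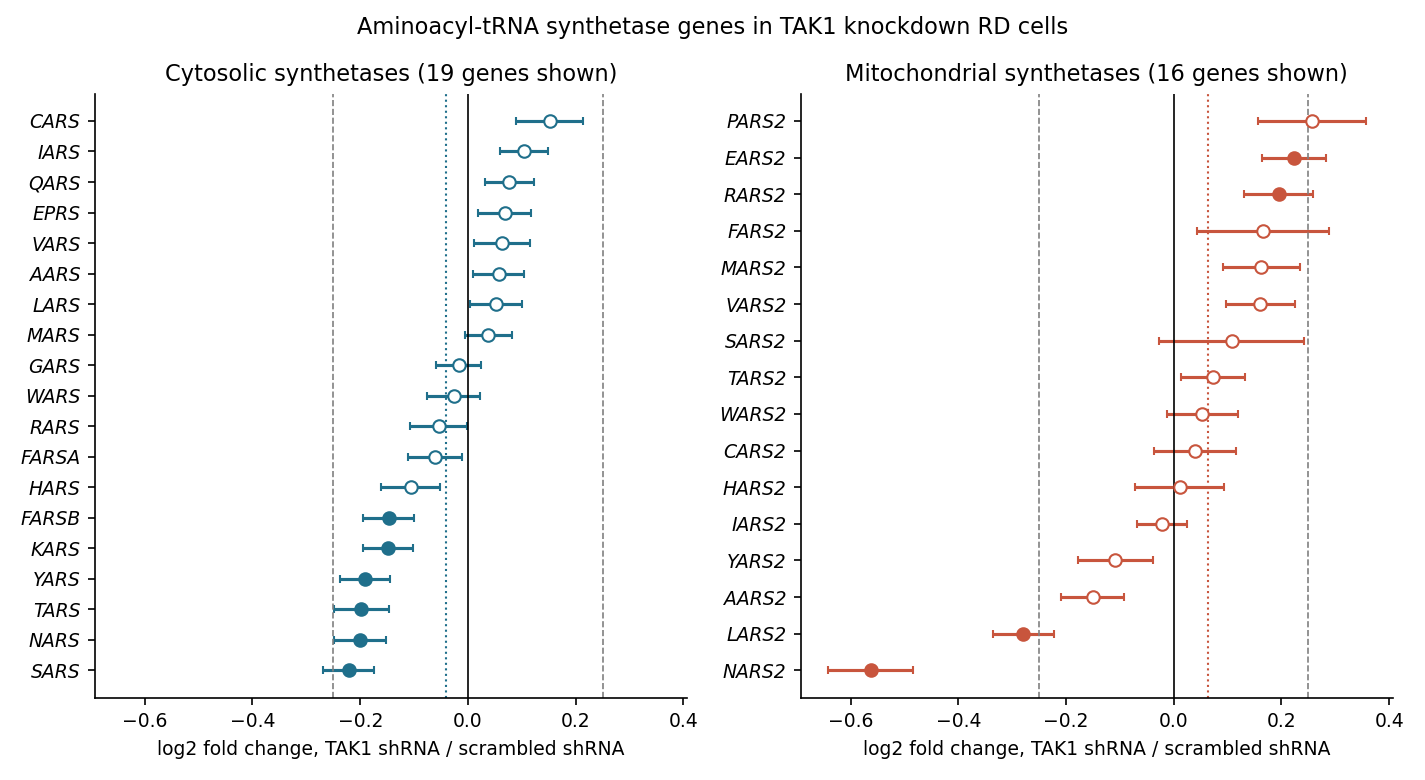
Log2 fold change of TAK1 shRNA against scrambled shRNA (x axis) for 19 of the 20 cytosolic (left) and the 16 mitochondrial (right) synthetase genes, with bars of 1 standard error. Filled points have an adjusted p under 0.05, dashed lines mark 0.25 in either direction and the dotted line is the median of the whole set, -0.04 for cytosolic and 0.06 for mitochondrial genes. NARS2 at -0.56 and LARS2 at -0.28 are the only filled points beyond a dashed line.

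NARS2 was the member with the largest change. Its level was 25.5, 23.8 and 25.1 CPM in the control samples and 15.7, 17.5 and 17.1 CPM in the TAK1 knockdown samples. The highest knockdown sample lay well below the lowest control sample. The means were 24.8 ± 0.898 CPM and 16.8 ± 0.938 CPM (SD, n = 3), a level in knockdown cells 0.677 times that of controls. On the log2 scale the difference was -0.56 (standard error 0.080, adjusted p = 4.32e-06). NARS2 (ENSG00000137513.11) is protein-coding and occupies positions 78435620 to 78575194 of chromosome 11 (GRCh38, minus strand), with 14 exons in its canonical transcript. Its exons overlap those of an annotated gene without a symbol on the opposite strand.

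LARS2 had 58.3, 57.0 and 59.6 CPM in control samples and 47.7, 47.6 and 48.9 CPM in knockdown samples. These groups did not overlap either, and the values within each group differed by less than 3 CPM. The means were 58.3 ± 1.28 and 48.1 ± 0.756 CPM (SD, n = 3), with a log2 fold change of -0.28 and a standard error of 0.058 (adjusted p = 0.000472). LARS2 (ENSG00000011376.12) occupies positions 45388561 to 45554726 of chromosome 3 on the plus strand. Its annotated antisense neighbour LARS2-AS1 was listed at 0 counts in all samples. With scaling by library size alone the log2 fold change of LARS2 was -0.23, under the fold threshold, at an adjusted p of 0.00286.

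Among the other mitochondrial members, EARS2 and RARS2 were higher by adjusted p alone. EARS2, which charges mitochondrial tRNA with glutamate, had 41.4, 43.5 and 42.0 CPM in control samples and 49.2, 49.5 and 49.4 CPM in knockdown samples. All knockdown samples were above all control samples. Exons of EARS2 overlap those of GGA2 on the same strand and of UBFD1 on the opposite strand. The EARS2 log2 fold change was 0.22 (standard error 0.060, adjusted p = 0.0052), under the fold threshold. With scaling by library size alone it was 0.27 and passed. RARS2, the arginine enzyme, had 44.2, 44.4 and 45.1 CPM in controls and 46.75, 52.8 and 53.2 CPM in knockdown samples. Replicate 1 of the knockdown samples lay closest to the controls, and the log2 fold change was 0.19 (standard error 0.064, adjusted p = 0.0198). The adjusted p of RARS2 rose above 0.05 when any 1 control sample, or replicate 2 or 3 of the knockdown samples, was left out (log2 fold changes of 0.15 to 0.20, adjusted p of 0.0527 to 0.104), and without replicate 1 of the knockdown samples the log2 fold change was 0.25 and passed both thresholds.

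The remaining 12 mitochondrial members did not pass the test. PARS2, the prolyl enzyme, had the highest log2 fold change of all members, 0.26, at an adjusted p of 0.0517. Its values were 11.15, 10.8 and 9.70 CPM in controls and 11.8, 12.65 and 13.3 CPM in knockdown samples, without overlap. PARS2 passed both thresholds under 5 of 14 alternative settings. AARS2 lay on the other side at -0.15 (adjusted p = 0.0503), from 57.6, 60.3 and 62.8 CPM to 53.3, 56.4 and 53.1 CPM, and passed the adjusted p under 6 of 14 alternatives with a log2 fold change between -0.18 and -0.10 throughout. VARS2 and MARS2 had log2 fold changes of 0.16 each (adjusted p = 0.0542 and 0.0849) and FARS2 of 0.17 with a wider standard error of 0.12. VARS2 passed the adjusted p under 5 and MARS2 under 3 of the 14 alternatives. SARS2, TARS2, WARS2, CARS2 and HARS2 lay between 0.01 and 0.11, IARS2 at -0.02 and YARS2 at -0.11. SARS2 and FARS2 were the least abundant members, at 6.33 and 6.76 CPM in control samples, and the 95% intervals of their log2 fold changes reached from -0.155 to 0.37 and from -0.075 to 0.406. Exons of SARS2 overlap those of an annotated gene without a symbol on the same strand. How reads shared by such genes were counted is not given in the sources used here.

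In the cytosolic set, 0 of 20 members were called in either direction. Of the 20, 6 were lower by adjusted p alone, all by less than 0.25 on the log2 scale, and 0 were higher. These 6 are 30.0% of the set, beside 17.2% of all genes lower and 16.1% higher by the same rule. Of the 10490 genes expressed at or above the level of the lowest member, 2499 were lower and 2073 higher by it. In either direction 30.0% of the set passed, against 33.3% of all genes and 43.6% of those 10490 genes, so the set showed no excess. The lowest member is mitochondrial, and the cytosolic genes had at least 46.8 CPM in control samples. No share was computed for genes at that level. SARS, the seryl enzyme, had 173, 182 and 179 CPM in control samples and 147.5, 154 and 156 CPM in knockdown samples (log2 fold change -0.22, standard error 0.047, adjusted p = 0.000598). NARS, the cytosolic counterpart of NARS2, went from 177, 182.5 and 185 CPM to 151, 163 and 161 CPM (-0.20, adjusted p = 0.00182). Both genes had every knockdown sample below every control sample. TARS, the threonyl enzyme, had 201, 200 and 195 CPM against 160, 176 and 184 CPM (-0.20, adjusted p = 0.00354). YARS, the tyrosyl enzyme, had 201, 188 and 190 CPM against 165, 171.5 and 170 CPM (-0.19, adjusted p = 0.00233). Of these 4 genes TARS varied most within the knockdown group, where replicate 1 was the lowest, and without replicate 3 of that group its log2 fold change was -0.25 and it passed both thresholds.

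The last pair of this group had smaller differences. KARS, whose gene serves both compartments, had 182, 180 and 184 CPM in controls and 162, 160.5 and 170 CPM in knockdown samples (-0.15, adjusted p = 0.0138). FARSB, the beta subunit of the phenylalanyl enzyme, had 161, 158 and 161 CPM against 138, 147.4 and 147.5 CPM (-0.15, adjusted p = 0.0175). Neither pair of groups overlapped. FARSB lost its adjusted p under 0.05 without any 1 of the control samples (0.0569, 0.0559 and 0.0743 without replicates 1, 2 and 3) and with scaling by library size alone (-0.099, adjusted p = 0.102). KARS lost it without replicate 2 or 3 of the control samples (0.0518 and 0.0681) and with that scaling (-0.10, adjusted p = 0.0796). Exons of YARS overlap those of S100PBP on the opposite strand, which had a log2 fold change of 0.35 (adjusted p = 0.000522). Whether the counting used strand is not given in the sources used here, so the counts of these genes may hold reads of both.

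**Figure D2:**
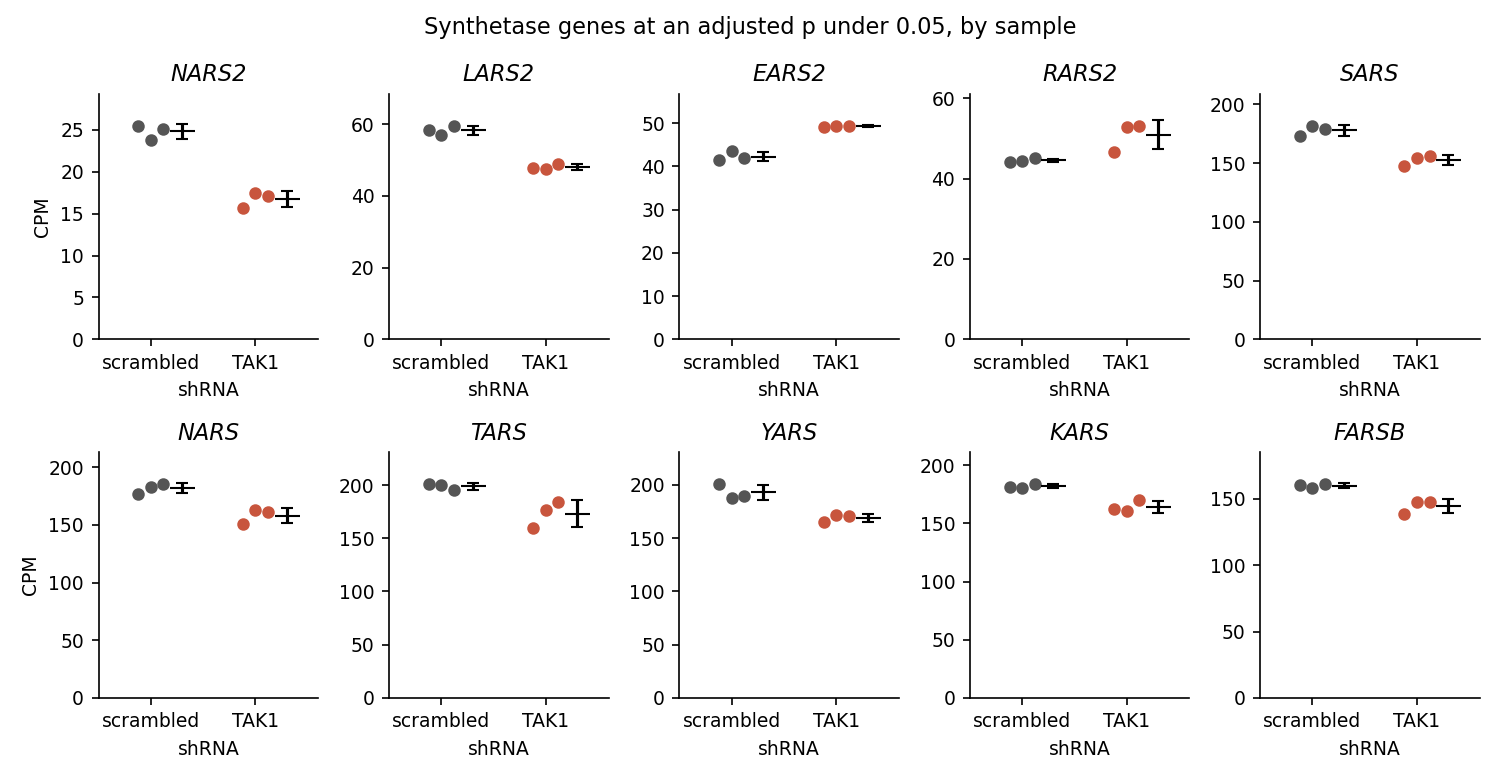
Level in CPM (y axis, from 0) of the 10 synthetase genes with an adjusted p under 0.05 in each control (scrambled) and TAK1 shRNA sample, with the mean and SD (n = 3) beside the points. The groups do not overlap in any of the 10 panels. NARS2 has means of 24.8 and 16.8 CPM.

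The other 14 cytosolic members did not pass the test. CARS and IARS, the cysteinyl and isoleucyl enzymes, had the highest log2 fold changes, 0.15 and 0.10 (adjusted p = 0.0662 and 0.0723). Each had an adjusted p under 0.05 with upper-quartile normalization, library size alone or a replicate block, and IARS also without replicate 1 of the knockdown samples (0.15, adjusted p = 0.00355). QARS, EPRS, VARS, AARS, LARS and MARS lay between 0.04 and 0.08. Of these, EPRS had an adjusted p under 0.05 without replicate 1 of the knockdown samples (0.118, adjusted p = 0.035). QARS had one with scaling by library size alone (0.125, adjusted p = 0.0318). GARS, WARS, RARS and FARSA lay between -0.06 and -0.02, and HARS at -0.11 (adjusted p = 0.148). The 95% intervals of all 14 reached no lower than -0.213 (HARS) and no higher than 0.275 (CARS). IARS, the most abundant member by CPM, had 536, 547 and 554 CPM in control samples and 552, 604 and 604 CPM in knockdown samples, which overlapped. FARSA, the alpha subunit that pairs with FARSB, had 182, 175 and 169 CPM against 179, 163 and 163 CPM, with a log2 fold change of -0.06. Counting both compartments, 17 of the 36 members had groups that did not overlap, 6 higher and 11 lower, which is 47.2% against 43.9% of all genes tested (21.6% higher and 22.2% lower) and 53.2% of the genes expressed at or above the level of the lowest member.

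Grouped by compartment, the cytosolic members had a median log2 fold change of -0.04 and the mitochondrial members of 0.06, beside 0.02 over all genes tested. The cytosolic median was 0.0076 with scaling by library size alone, where the median of all genes was 0.07. Of the cytosolic genes 8 had positive and 12 negative values, and of the mitochondrial genes 11 and 5. The mitochondrial members spanned a wider range, from -0.56 to 0.26, than the cytosolic ones, from -0.22 to 0.15, and their median absolute log2 fold change was 0.16 against 0.07. The mitochondrial genes were also expressed at lower levels, with 6.33 to 148 CPM in control samples against 46.8 to 546 CPM. Summed over members, cytosolic synthetase transcripts were 3970, 3953 and 3964 CPM in control samples and 3839, 3918 and 3973 CPM in knockdown samples. Mitochondrial ones were 659, 664 and 666 CPM in controls and 670, 665 and 664 CPM in knockdown samples. The sums overlapped between groups in both compartments, and the ratio of cytosolic to mitochondrial transcripts was 5.98 ± 0.041 and 5.87 ± 0.128 (SD, n = 3).

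Within the cytosolic set, the 8 members of the multi-synthetase complex, EPRS, IARS, LARS, MARS, QARS, KARS and RARS among them, had a median of 0.04, and 1 of them, KARS, was lower by adjusted p. The 12 cytosolic genes outside the complex had a median of -0.08, with 5 lower by adjusted p, namely SARS, NARS, TARS, YARS and FARSB. These are 12.5% and 41.7% of the genes inside and outside the complex, beside 17.2% of all genes tested. Of the 10490 genes at or above the level of the lowest member, 2499 were lower by this rule. In neither set was a gene higher by it. In either direction 33.3% of all genes and 43.6% of those 10490 genes passed. The difference between the 2 sets was not tested. Of the 12 synthetases commonly listed as ATF4 targets, 4 were lower by adjusted p (33.3%), 0 were higher and the median was 0.01. Beside this stand 17.2% of all genes tested and the same 2499 of 10490 genes lower, and 33.3% and 43.6% of them in either direction. For the other 8 cytosolic genes the median was -0.06, with 2 lower, and these sets were not tested against each other either. The genes with the printed response element did not share a direction: NARS and TARS were lower by adjusted p, AARS, CARS, IARS and MARS had positive values that did not pass, and the median of the 6 was 0.05. The 10 cytosolic genes whose window lacked the motif had a median of -0.06.

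Cytosolic and mitochondrial genes for the same amino acid were then set side by side, in 17 pairs for 16 amino acids. In 12 pairs the mitochondrial gene had the higher log2 fold change, in 5 the lower, and in 10 the signs were opposite. The largest gap downwards was that of asparagine. As a share of NARS, the NARS2 level was 14.4%, 13.0% and 13.5% in control samples and 10.4%, 10.7% and 10.6% in knockdown samples, so that all knockdown samples lay below all control samples. For leucine, LARS2 was 29.6%, 28.8% and 30.4% of LARS in controls and 24.7%, 23.6% and 22.4% in knockdown samples, while LARS itself had a log2 fold change of 0.05. In the opposite direction the log2 fold changes differed most for serine (0.33), FARSB with FARS2 (0.31), threonine (0.27) and arginine (0.25). The ratio overlapped between groups for serine and not for the others. For arginine, RARS2 was 50.7%, 53.3% and 50.6% of RARS in controls and 59.0%, 62.6% and 61.8% in knockdown samples. The asparagine, leucine and arginine ratios each had groups that did not overlap. However, 3 against 3 samples cannot give an exact permutation p (two-sided) below 0.1. Adjusted over the 17 pairs the smallest value was 0.17, and no pair passed. Groups did not overlap in 10 of the 17 ratios. For single genes the share without overlap was 43.9% of all genes tested and 53.2% of those at or above the level of the lowest member. No such share was computed for ratios of other genes. EPRS and FARS2 each enter more than once, so the pairs are not separate, and all of their pairs are among the 12 and the 10. These shares are of CPM, without correction for transcript length, so only their differences between groups compare.

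**Figure D3:**
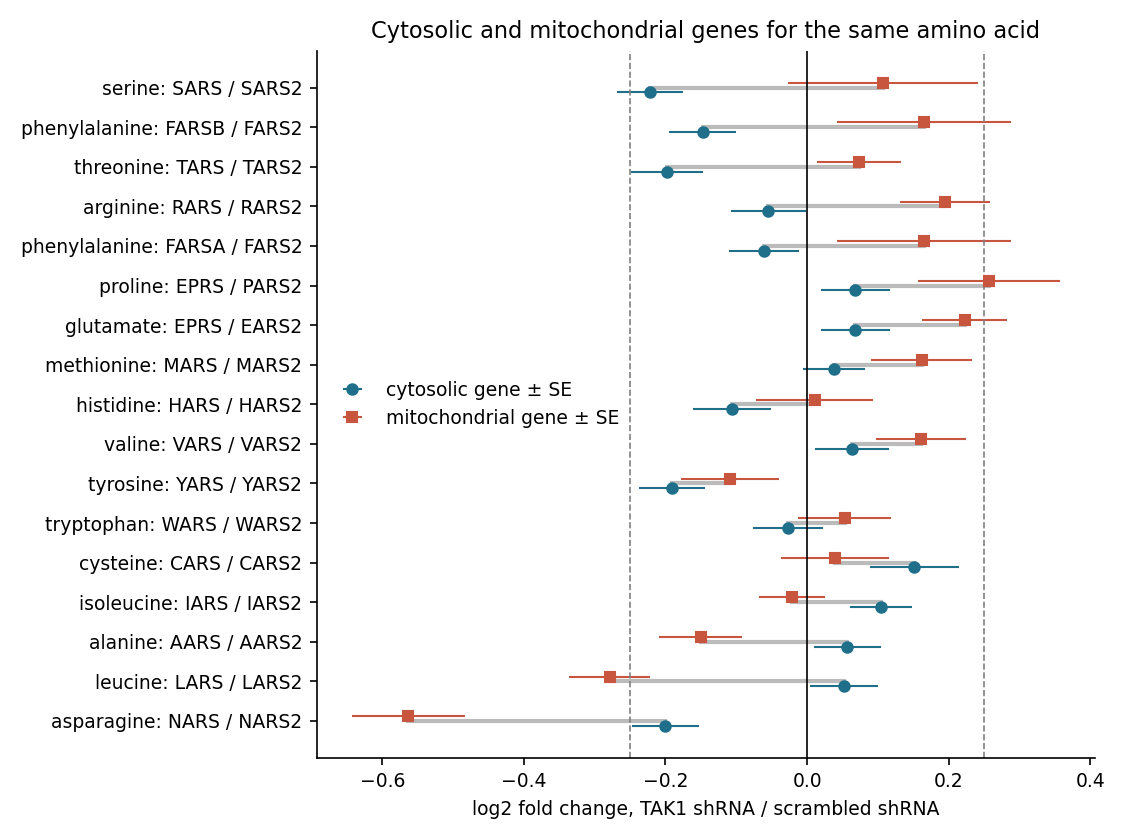
Log2 fold change (x axis, bars of 1 standard error) of the cytosolic gene (circles) and the mitochondrial gene (squares) for each amino acid, ordered by the difference between them; grey lines join a pair and dashed lines mark 0.25. The squares lie to the right of the circles in 12 of 17 pairs, and furthest to the left for NARS2 (-0.56) and LARS2 (-0.28).

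Levels between genes were compared as CPM per kilobase of the longest GENCODE 44 transcript. In control samples the cytosolic genes ranged from 8.16 for CARS to 93.0 for SARS, with a median of 57.1, and the mitochondrial genes from 1.74 for FARS2 to 42.0 for IARS2, with a median of 8.73. SARS, FARSA and QARS were the highest cytosolic genes, at 93.0 ± 2.42, 85.3 ± 3.21 and 78.1 ± 0.283 per kilobase (SD, n = 3). IARS2, TARS2 and YARS2 led the mitochondrial set at 42.0, 22.2 and 14.9. IARS2 had 146.5, 146.5 and 152 CPM in control samples and 147.5, 146 and 145 CPM in knockdown samples. TARS2 had 60.6, 62.0 and 59.1 CPM against 68.5, 62.2 and 60.5 CPM, and YARS2 had 32.2, 30.8 and 31.6 CPM against 29.1, 27.9 and 30.7 CPM. Of these 3 only YARS2 had groups that did not overlap, at an adjusted p of 0.25. QARS, at 190, 192 and 192 CPM in controls and 208, 203 and 194 CPM in knockdown samples, did not overlap either and did not pass the test (adjusted p = 0.209). The cytosolic order rests on the length used. With the union of exons the highest were FARSA, VARS and EPRS, and with the canonical transcript, a length added after seeing the data, GARS, IARS and FARSA, whereas IARS2 and TARS2 led the mitochondrial genes under all 3 lengths.

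**Figure D4:**
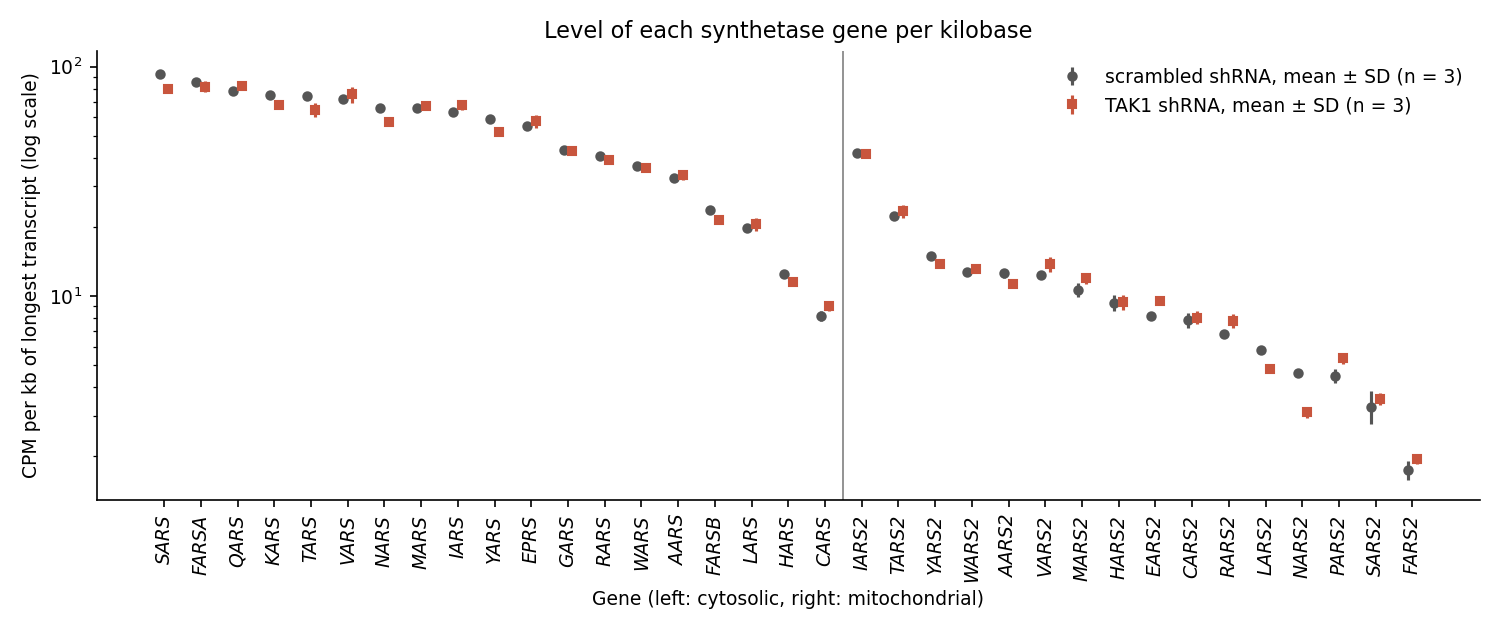
Level of the members, 1 cytosolic gene left out, per kilobase of its longest transcript (y axis, log scale, CPM per kb) in control and TAK1 knockdown samples, as mean ± SD (n = 3), ordered within the cytosolic (left) and mitochondrial (right) sets by the control level. The 2 symbols lie close together for most genes and furthest apart for NARS2, and the mitochondrial median of 8.73 lies below the cytosolic median of 57.1.

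The position of the members in the genome was examined next, since the rule did not use it. The 36 genes lie on 14 chromosomes, and 23 of them share exonic bases with a neighbouring gene, 8 with one on their own strand and 19 with one on the other strand. HARS and HARS2, the cytosolic and mitochondrial histidyl genes, start 107 bases apart in opposite directions on chromosome 5. HARS had 66.4, 69.6 and 68.9 CPM in controls and 61.4, 63.9 and 65.1 CPM in knockdown samples, and HARS2 had 21.2, 23.3 and 24.9 CPM against 21.4, 23.55 and 25.02 CPM. Neither passed the test. EARS2 starts 10 bases from UBFD1, the smallest such distance among the members, and UBFD1 was lower (log2 fold change -0.46, adjusted p = 1.07e-07) where EARS2 was higher by adjusted p. ING1, which starts 867 bases from CARS2, was also lower (-0.34, adjusted p = 0.0037), with CARS2 at 0.04. Other genes on the opposite strand also start within 1000 bases of a member. These are DDX19B of AARS, TERF2IP of KARS, WDR25 of WARS, LYRM4 of FARS2, ORC3 of RARS2 and MRPS12 of SARS2. They had log2 fold changes between -0.14 and 0.23 and were not called. Of these only LYRM4, which starts 94 bases from FARS2, was higher by adjusted p alone (0.23, adjusted p = 0.0311), with FARS2 at 0.17. NARS2 and LARS2 had no such partner. Exons of UBFD1, ING1, DDX19B, TERF2IP and WDR25 overlap those of their members, as exons of HARS and HARS2 overlap each other.

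The partners of the synthetases were read from a list of 37 genes, of which 36 were tested. By the rule above 3 were higher and 2 lower, together 13.9% against 23.1% of all genes tested. Among the scaffolds of the multi-synthetase complex, EEF1E1 was lower, with 3.66, 4.38 and 5.06 CPM in controls and 2.50, 2.61 and 2.15 CPM in knockdown samples (log2 fold change -0.85, standard error 0.18, adjusted p = 0.000601). It is a gene of low counts that shares exons with the read-through gene EEF1E1-BLOC1S5. AIMP1 and AIMP2, the other scaffolds, had log2 fold changes of -0.03 and -0.07 and did not pass. In mitochondria, glutaminyl-tRNA is made by an amidotransferase whose subunits are GATB, GATC and QRSL1. GATC was lower, with 39.8, 42.5 and 43.9 CPM against 35.4, 34.9 and 34.4 CPM (-0.27, adjusted p = 0.00211). Its exons overlap those of an annotated gene without a symbol on the same strand and of SRSF9 on the opposite strand. GATB and QRSL1 had values of -0.09 and -0.11 that did not pass. MTFMT, which formylates the mitochondrial initiator methionyl-tRNA, was higher (0.27, adjusted p = 0.0396), with 13.9, 13.5 and 18.0 CPM in controls and 19.3, 18.4 and 17.2 CPM in knockdown samples, which overlap.

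DTD2, which removes wrongly charged amino acids from tRNA, was higher (0.28, adjusted p = 0.00287), and XPOT, the tRNA exporter, had a value of 0.04. Exons of DTD2 overlap those of an annotated gene without a symbol on the same strand and of HEATR5A-DT on the opposite strand. The selenocysteine charging genes PSTK and SEPSECS had values of 0.21 and 0.01 that did not pass. None of the 8 tested delivery factors was called, although EEF1A1, which brings charged tRNA to the ribosome, was higher by adjusted p (0.12, adjusted p = 0.0258) and GFM1, a mitochondrial elongation factor, lower (-0.17, adjusted p = 0.0273). EEF1G was listed at 0 counts in all samples and was not tested. Its exons overlap those of an annotated gene without a symbol on the same strand, and whether the 0 comes from the counting was not tested. Of the 14 genes for uncharged tRNA sensing and ATF4 targets, 1 was called (7.14%, against 23.1% of all genes tested). This was SLC7A5, a transporter of large neutral amino acids, with 134, 122 and 120 CPM in controls and 164, 141 and 148 CPM in knockdown samples (0.27, adjusted p = 0.000613). SLC3A2, the chain with which SLC7A5 pairs, was lower by adjusted p alone (-0.22, adjusted p = 0.00632), as were the serine pathway genes PSAT1 and SHMT2 (-0.16 and -0.13). GCN1, the activator of the GCN2 kinase, was higher by adjusted p alone (0.15, adjusted p = 0.012). ATF4 itself had a log2 fold change of -0.10 (adjusted p = 0.114), and DDIT3, TRIB3, CHAC1, SESN2 and ASNS lay between -0.09 and 0.00 without passing the test. ASNS was near the floor at 0.909 CPM in control samples, with a 95% interval from -0.683 to 0.669. DDIT3 and CHAC1 were low too, at 5.44 and 5.04 CPM (standard errors 0.15 and 0.16), so changes of moderate size in these genes could be missed. Exons of ASNS and of DDIT3 each overlap those of an annotated gene without a symbol on the same strand. DDIT3 also shares exonic bases with MARS. Whether the low counts of ASNS and DDIT3 come from the counting was not tested. The median over these 14 genes was -0.04.

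**Figure D5:**
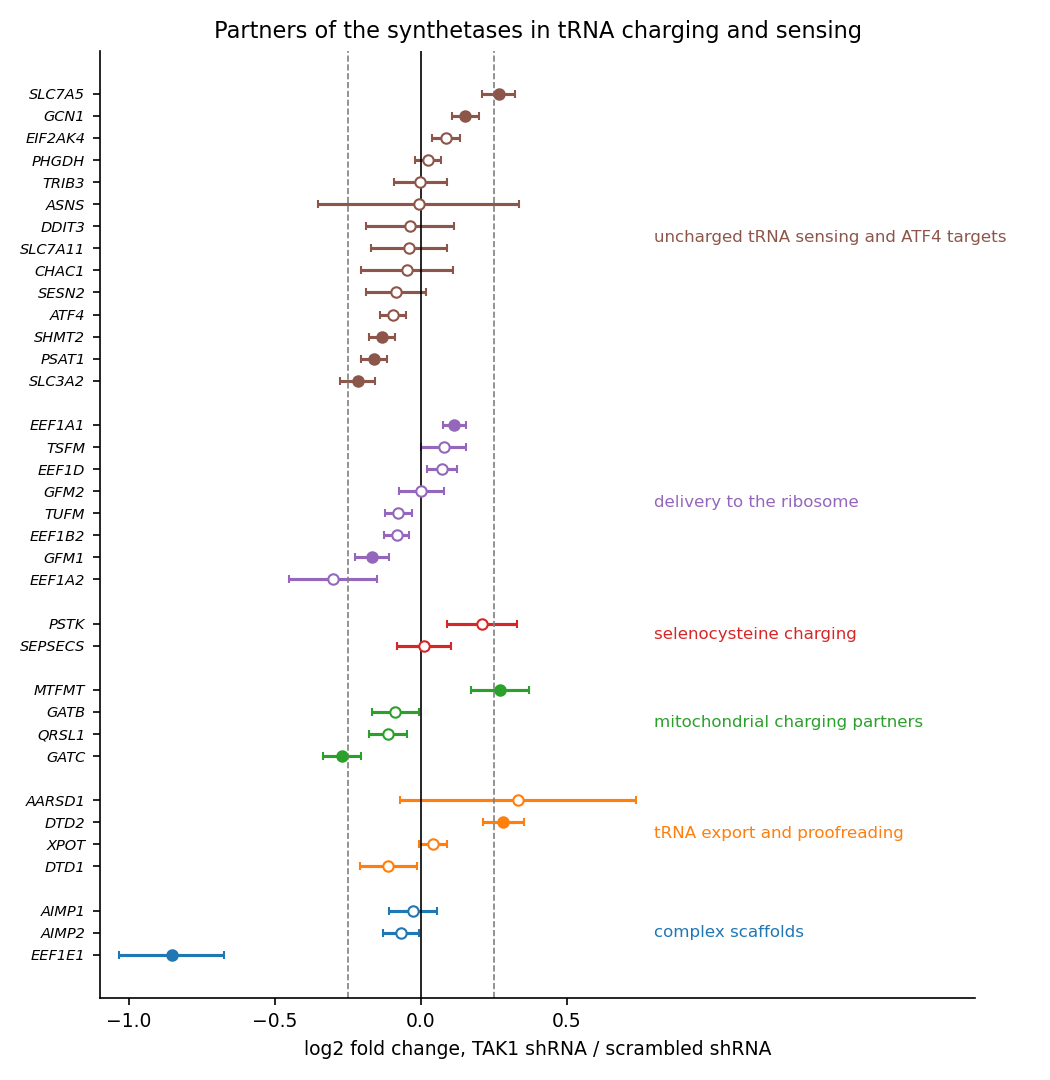
Log2 fold change (x axis, bars of 1 standard error) of the tested partner genes, 1 left out, in 6 groups; filled points have an adjusted p under 0.05 and dashed lines mark 0.25. EEF1E1 at -0.85 lies furthest from 0, and GATC, MTFMT, DTD2 and SLC7A5 are the other filled points beyond a dashed line.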

How the data were processed

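Per the study's methods and the submitters' processing notes, the authors called bases with CASAVA, removed adaptor-containing and low-quality reads, aligned poly(A)-enriched reads to GRCh38 with STAR and deposited raw counts per gene, without normalization. The counter, annotation release and strand use are not given in the sources used here. Groups came from the sample titles. Genes passing edgeR's default filter (15935) were scaled by TMM factors and tested with edgeR 4.0.16 in R 4.3.3 (quasi-likelihood, Benjamini-Hochberg). CPM are counts over the TMM-scaled library. A standard error is the size of the log2 fold change over the root of F. A 95% interval is the log2 fold change ± 1.96 standard errors, from the normal distribution. It is therefore somewhat narrower than the F test would give. Replicates differed by more than sampling noise (chi-square per degree of freedom 2.80 to 7.94), and total counts of 28839898 to 34469323 left every member with at least 164 counts per sample. The tests were checked on simulated counts. The members are named, except for 1 that is not reported here, as is 1 partner gene, though both stay in the counts and medians, with per-sample values for those called and the 3 highest per kilobase in each compartment. The members and lists were chosen with earlier results of these data known. Annotation came from GENCODE 44 and promoters from RefSeq (GRCh38.p14). Alternatives were DESeq2 1.42.0, limma 3.58.1 (voom), other normalizations, filters, fold thresholds, a replicate block and the omission of single samples.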

Additional observations from a re-analysis of the deposited data

How the results depend on the processing

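NARS2 and LARS2 were the 2 members called lower with upper-quartile and RLE normalization, DESeq2, limma-voom, both other filters, the replicate block and each sample left out. Leaving out single samples gave 2 to 3 members lower, the third being TARS, and 0 to 2 higher, the 2 being PARS2 and RARS2 without replicate 1 of the knockdown samples. With scaling by library size alone 1 member was lower (NARS2) and 2 were higher (EARS2 and PARS2), and the medians became 0.0076 for cytosolic and 0.11 for mitochondrial genes. That scaling moved the median of all genes from 0.02 to 0.07 and the share of all calls that were higher from 51.0% to 62.9%. PARS2 was the 1 member called higher with upper-quartile normalization, when 10 counts were required of each sample and with the replicate block. Without a fold threshold 8 members were lower and 2 higher, and at a threshold of 0.5 only NARS2 was lower, 1 member. With 1 sample left out, the cytosolic median ran from -0.05 to -0.03 and the mitochondrial median from 0.05 to 0.09. The log2 fold change of NARS2 stayed between -0.60 and -0.51 over its 14 alternatives. Of the 36 members, 7 changed sign under at least 1 alternative, all of them uncalled, with a log2 fold change of at most 0.0633 in size. Deviations of same-numbered samples correlated at 0.048 to 0.134, and those of differently numbered samples at -0.137 to 0.077. These values do not settle whether the replicate numbers pair the samples. The block changed the call of PARS2 only (0.26, adjusted p = 0.0404). With it CARS, IARS, AARS2, MARS2 and VARS2 also had an adjusted p under 0.05, below the fold threshold. The cause of these differences was not tested.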
